A study of Mus musculus with 6 samples.

Results

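The genes of acetylcholine synthesis, transport, breakdown and reception were examined in 2 sorted fractions of mouse medullary thymic epithelial cells (mTEC). The set held 9 genes, listed by name for their known roles and found by their Ensembl identifiers among the 52636 gene rows of the count table: Chat, Slc5a7, Slc18a3, Ache, Bche, Chrm3, Chrm1, Chrna7 and Chrnb2. All 9 were in the table and passed the filter on low counts, which left 32496 genes for testing.

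The study sorted cells from thymi of C57BL/6 mice aged 6 weeks and made 3 bulk libraries of each fraction by ultra-low-input RNAseq. Both fractions bound the lectin UEA1, had low MHCII and lacked Sca1 and CD63 on their surface, and CD80 was absent by the labels and low by the study's text. Tuft-like mTEC carried both CD117 and CD66a, whereas non-tuft-like mTEC carried neither. The sources used here do not say whether the 3 libraries of a fraction came from separate mice, so the p-values measure the spread between these libraries, which may be technical.

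Acetylcholine is made from choline and acetyl-CoA by choline acetyltransferase, loaded into vesicles by the vesicular transporter, and split outside the cell by cholinesterases, after which neurons take the choline up again. It acts on G protein-coupled muscarinic receptors and on nicotinic receptors, which are ion channels of 5 subunits. Tuft cells are chemosensory epithelial cells of mucosal surfaces, where they are known as a non-neuronal source of acetylcholine, and tuft-like cells also occur in the thymic medulla.

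Chat and Slc18a3 form one locus, in which the single exon of the vesicular transporter lies inside an intron of the enzyme gene. In GENCODE M21 on GRCm38 (mm10), Chat (ENSMUSG00000021919) spans 32408203 to 32465989 on the minus strand of chromosome 14, and Slc18a3 (ENSMUSG00000100241) spans 32462438 to 32464850 on the same strand. Slc18a3 starts 1139 bp after this gene start of Chat, and 4 of 8 annotated Chat transcripts carry it in their first intron. The Slc18a3 exon is intronic in those Chat transcripts, so reads on it may also come from unspliced Chat RNA, which was not tested. The exons of the 2 genes share no bases. Their promoter sequences are printed here because the 2 genes share a locus and differed in level, with the first of 3 promoters given for Chdh, the one other gene of the cholinergic lists that was called. RefSeq promoters (GRCm38.p6, 250 bases before to 50 after the start, written in the direction of the gene) were given for 8 of the 9 members, without Chrm1. Capitals mark the letters TGCAAAT in Chat, the core of the octamer read by POU factors, and CCGCCC, the reverse complement of the GC box GGGCGG, in Slc18a3 and Chdh.
Chat (chr14:32465860-32466159, minus strand): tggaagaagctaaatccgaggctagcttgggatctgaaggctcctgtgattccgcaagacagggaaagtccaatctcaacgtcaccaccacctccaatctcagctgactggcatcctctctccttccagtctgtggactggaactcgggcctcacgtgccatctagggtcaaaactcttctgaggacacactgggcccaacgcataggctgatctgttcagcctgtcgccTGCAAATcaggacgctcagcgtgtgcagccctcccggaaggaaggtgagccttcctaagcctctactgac
Slc18a3 (chr14:32464801-32465100, minus strand): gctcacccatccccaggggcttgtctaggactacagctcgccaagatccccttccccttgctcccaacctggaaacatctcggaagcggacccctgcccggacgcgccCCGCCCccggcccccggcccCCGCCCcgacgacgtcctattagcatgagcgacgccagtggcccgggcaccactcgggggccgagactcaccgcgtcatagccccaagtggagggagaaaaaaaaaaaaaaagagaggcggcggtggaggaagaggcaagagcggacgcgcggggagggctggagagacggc
Chdh (chr14:30008750-30009049, plus strand): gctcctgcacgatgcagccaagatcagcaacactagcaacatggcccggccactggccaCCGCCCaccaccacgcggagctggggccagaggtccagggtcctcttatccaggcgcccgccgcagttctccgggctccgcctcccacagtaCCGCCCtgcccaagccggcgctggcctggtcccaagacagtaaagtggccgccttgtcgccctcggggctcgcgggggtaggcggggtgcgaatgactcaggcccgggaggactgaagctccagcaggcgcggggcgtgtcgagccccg

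The Chat promoter had 55.7% G and C, near the median of 52.7% over 32851 mouse promoters, and that of Slc18a3 had 67.0%. The printed Chdh promoter had 70.3%, whereas the other Chdh promoters had 51.7% and 53.7% and no GC box. The octamer core began 20 bases before the RefSeq start of Chat, which lies 80 bp inside the GENCODE gene, so that the core was 60 bp after the GENCODE gene start and in an exon of 4 annotated transcripts. It was searched for only after that sequence had been read. It was present on either strand in 4.02% of all promoters, and the full octamer ATGCAAAT, absent from these 3 windows, in 1.74%. The GC box was present in 35.7% of all promoters, and the TATA box TATAAA, in 13.6% of them, was in none of the 3 windows. These matches are descriptions of letters and not of bound sites.

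Library depth ran from 20097617 to 48369825 counts on genes. The share of all counts assigned to no gene ran from 19.7% in tuft-like replicate 3 to 61.6% in tuft-like replicate 1. The 1134 olfactory receptor genes, a family known mainly from the nose, averaged 0.0702 CPM (counts scaled to the library's effective size) per kb of exon in tuft-like replicate 3 and 0.180 to 0.628 in the others, and their 99th percentile in each library, 1.24 to 2.75 CPM per kb, was used as a mark of low signal. Tuft-like replicate 3 therefore stood apart, and values without it are given below where it decided one. All 16 tuft markers were higher in tuft-like mTEC at a median log2 fold change of 4.27, among them the kinase gene Dclk1 (5.80, FDR = 0.00031 by edgeR's quasi-likelihood test), the taste channel gene Trpm5 (4.31, FDR = 0.000555) and the tuft regulator Pou2f3 (2.15, FDR = 0.0071). Of the sort markers, Ceacam1, which encodes CD66a, was higher (4.12, edgeR FDR = 0.000886). Kit, which encodes CD117, had a log2 fold change of 1.24 that did not pass the threshold (edgeR FDR = 0.0678). Kit passed it in 9 of 15 alternative settings, but in only 1 of the 6 that left out 1 library, where the edgeR FDR reached 0.388. Its libraries did not overlap between fractions, as for 16.0% of all tested genes.

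Of the 9 members, Chat alone was called at an FDR under 0.05 by edgeR, and it was higher in tuft-like mTEC. None was called lower, 8 were not called, and 2 had an unadjusted p under 0.05. Over all tested genes 2.11% were called, 1.16% as higher and 0.951% as lower, and 8.97% had an unadjusted p under 0.05. The 3 libraries of one fraction lay wholly above or below those of the other for Chat, Ache and Bche, that is for 3 of 9 members, against 16.0% of all tested genes. The median log2 fold change of the members was -0.56, beside 0.02 over all genes. It was positive for 4 of 9 members and for 16568 of the 32496 tested genes. With 3 libraries against 3, the exact two-sided permutation test has 0.10 as its smallest p, and it gave that value for each of those 3 genes.

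**Figure D1:**
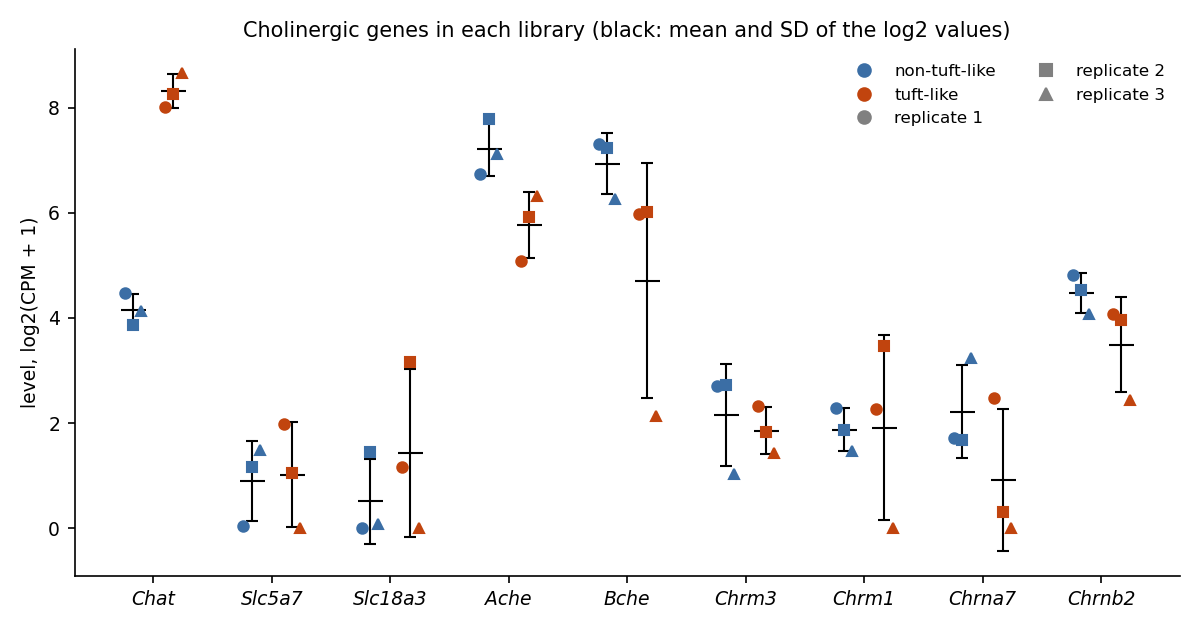
Level of each of the 9 cholinergic genes as log2(CPM + 1), with one point per library, a colour per fraction, a marker shape per replicate, and black lines for the mean and SD of the log2 values. The 3 tuft-like libraries lie above the non-tuft-like ones for Chat and below them for Ache and Bche, and the remaining members overlap.

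Chat, the enzyme that makes acetylcholine, showed the widest difference of the set. Its normalised level was 258.4, 306.9 and 402.3 CPM in the 3 tuft-like libraries, against 21.1, 13.6 and 16.6 CPM in the non-tuft-like ones. All tuft-like libraries were high and all non-tuft-like libraries low, with the lowest of the former far above the highest of the latter. The means were 322.5 ± 73.2 and 17.1 ± 3.80 CPM (SD, n = 3 each), an 18.9-fold difference of means. The log2 fold change was 4.24 with a standard error of 0.34 and a 95% interval from 3.49 to 4.99 (edgeR, FDR = 0.000334). Chat was called in each of the 15 alternative settings, with log2 fold changes from 4.01 to 4.41.

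Chat was not at zero outside the tuft-like fraction. The raw counts were 670, 639 and 521 in non-tuft-like and 6253, 10498 and 14567 in tuft-like mTEC, and Chat was above the olfactory receptor mark in all 6 libraries. The non-tuft-like mean was 5.30% of the tuft-like mean. The same share over the 16 tuft markers had a median of 5.19% and ran from 1.44% to 22.5%, so the residual Chat level sat among theirs. In bulk libraries, fewer cells with Chat and less Chat RNA per cell cannot be told apart.

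The tuft-like gate lay within CD45- EpCAM1+ cells, and markers of other cells known to carry Chat were measured in the same libraries. The summed level of 8 T cell genes was 6.24 to 32.4 CPM in tuft-like and 19.1 to 31.7 CPM in non-tuft-like mTEC and none of them was called. The sum of 5 B cell genes was 65.7 to 101.8 CPM against 18.4 to 26.1 CPM. Of these, Cd79b alone was called (log2 fold change 3.20, edgeR FDR = 0.0032). Only 2 of the 5 had a positive log2 fold change, the median was -0.085, and the fractions overlapped for all but 1 gene. Cd79a was at 0 in tuft-like replicate 3, the library with the lowest olfactory receptor level. The sum of 8 neural and Schwann cell genes was 15.1 to 66.9 CPM against 63.5 to 72.9 CPM, none called. The sum of 5 endothelial genes, also measured, was 171 to 338 CPM against 35.7 to 63.7 CPM. All 5 had a positive log2 fold change, but Tek alone was called (2.93, edgeR FDR = 0.0057), and the fractions overlapped for each of the others. Tek made up 169.2 of 338, 141.8 of 171 and 225.0 of 230.7 CPM in tuft-like replicates 1 to 3. In non-tuft-like replicates 1 to 3 it made up 22.2 of 35.7, 36.7 of 63.7 and 11.4 of 37.9 CPM. The part of these cells in the Chat level was not tested.

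The vesicular acetylcholine transporter gene Slc18a3 was low and uneven between libraries of the same fraction. Its counts were 30, 271 and 0 in tuft-like mTEC and 0, 81 and 2 in non-tuft-like mTEC, or 1.24, 7.92 and 0 CPM against 0, 1.72 and 0.064 CPM. Tuft-like replicate 2 held nearly all of the tuft-like counts and was the only library above the olfactory receptor mark, while replicate 3 had none beside 14567 counts of Chat. A count of 0 there allows up to 3 counts, or 0.0828 CPM, for counting error alone. The log2 fold change was 2.34 with a standard error of 2.31 (95% interval -2.79 to 7.48, edgeR FDR = 1), and it ran from 0.03 to 6.42 when single libraries were left out. Whether Slc18a3 differed was not detectable with this spread.

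**Figure D2:**
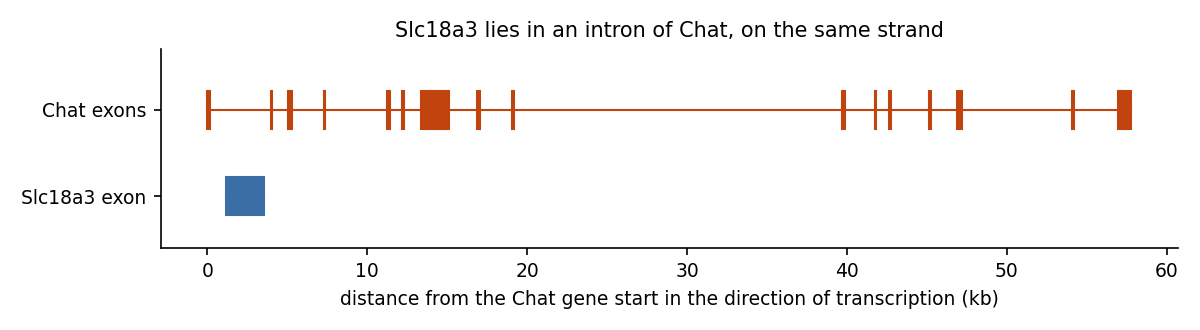
Map of the exons of Chat and Slc18a3, with the distance from the Chat start in the direction of transcription in kb on the x axis and one row per gene. The single Slc18a3 exon begins 1139 bp after the Chat start and overlaps no Chat exon.

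Slc5a7, the high-affinity choline transporter of cholinergic neurons (ENSMUSG00000023945, chromosome 17, 54273590 to 54299034), was near or below the mean olfactory receptor level. It had 72, 37 and 0 counts in tuft-like and 1, 59 and 57 in non-tuft-like mTEC, that is 2.98, 1.08 and 0 CPM against 0.032, 1.26 and 1.81 CPM. Both fractions held a library near zero and overlapped. The mean olfactory receptor level, scaled to the exon length of Slc5a7, corresponded to 85.7, 70.2 and 14.3 counts in the tuft-like libraries and 32.2, 52.7 and 76.3 in the non-tuft-like ones, and the gene was above this level in 1 of 6 libraries. Its log2 fold change of 0.38 had a standard error of 2.05 (95% interval -4.17 to 4.94, edgeR FDR = 1) and changed sign under 4 of the alternatives.

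Both cholinesterase genes were lower in every tuft-like library than in any non-tuft-like one, but neither was called. Ache, acetylcholinesterase (ENSMUSG00000023328, chromosome 5, 137287519 to 137294466), stood at 33.0, 59.7 and 78.5 CPM in tuft-like and 106.2, 219.2 and 138.4 CPM in non-tuft-like mTEC. The means were 57.1 ± 22.9 and 154.6 ± 58.2 CPM (SD, n = 3 each), and tuft-like replicate 3 came nearest to the non-tuft-like range. The log2 fold change was -1.44 with a standard error of 0.39 (95% interval -2.30 to -0.58, edgeR FDR = 0.114). Ache passed the threshold in 5 of the 15 alternative settings, among them DESeq2 (FDR = 0.0038), and in none that left out 1 library, where the edgeR FDR ran from 0.0726 to 0.575.

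Bche, butyrylcholinesterase (ENSMUSG00000027792, chromosome 3, 73635808 to 73708415), a broader esterase that also splits acetylcholine, varied more. It stood at 62.0, 63.7 and 3.37 CPM in tuft-like and 157.2, 148.8 and 75.8 CPM in non-tuft-like mTEC. One library of each fraction was well below its partners, and the lowest non-tuft-like value was close to the highest tuft-like one. The log2 fold change was -1.57 with a standard error of 0.78 (95% interval -3.29 to 0.16, edgeR FDR = 0.670), and without tuft-like replicate 3 it was -1.06. Colq, whose collagen tail anchors acetylcholinesterase at synapses, had the highest mean of the breakdown list over all 6 libraries, though in non-tuft-like mTEC Ache was higher, and its log2 fold change was -0.39 (edgeR FDR = 1).

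Markers of other cell types in which cholinesterase is well known had lower sums in the tuft-like libraries as well. The summed erythroid markers were 92.4 to 164.1 CPM in tuft-like and 238.1 to 382.5 CPM in non-tuft-like mTEC. Of these 0 of 7 were called by edgeR and 4 had an unadjusted p under 0.05, against 8.97% of all tested genes. The summed muscle markers were 82.8 to 155.7 against 303.5 to 407.9 CPM. Among the 9, Actn3 was called lower and 3 had an unadjusted p under 0.05. Without Actn3 the sums were 76.7 to 150.04 against 133.8 to 173.1 CPM and overlapped. The neuroendocrine markers summed to 1109 to 2044 against 2285 to 4278 CPM. None of 6 was called, 2 had an unadjusted p under 0.05 and 0 had a positive log2 fold change, against 16568 of 32496 tested genes. Without Chga the sums were 623.5 to 957.6 against 944.5 to 1386 CPM, which overlapped. The part of these cells or genes in the Ache and Bche levels was not tested.

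Within each library the balance of Chat to Ache, which does not depend on library scaling, separated the fractions. Chat per kb of exon was 7.70, 5.06 and 5.04 times Ache in tuft-like mTEC, against 0.196, 0.0610 and 0.118 times in non-tuft-like mTEC. The enzyme that makes acetylcholine was thus the more abundant transcript in every tuft-like library and the less abundant one in every non-tuft-like library. The mean log2 ratio differed by 5.70, which restates the 2 differences above. The exact permutation test of the log2 ratio gave p = 0.1, the smallest value it can give. As Chat was higher and Ache lower in every tuft-like library, that value was fixed in advance and adds no evidence.

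Ordered by mean level per kb of exon in tuft-like mTEC, Chat was first at 68.6 CPM per kb, ahead of Ache at 12.3 and Bche at 6.38, and then came Chrnb2 at 1.38, Slc18a3 at 1.27 and the other 4 below 1. Chat lay above Ache in all 3 libraries, while the Ache and Bche ranges overlapped. In non-tuft-like mTEC the order was Ache at 33.4, Bche at 18.9, Chat at 3.64 and Chrnb2 at 2.60 CPM per kb. There the ranges of Ache and Bche overlapped, as did those of Chat and Chrnb2, and all Bche values were above all Chat values.

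The 4 receptor genes were low and gave no call. Chrm3, a Gq-coupled muscarinic receptor of glands and smooth muscle (ENSMUSG00000046159, chromosome 13, 9875486 to 10360847), had 4.01, 2.54 and 1.69 CPM in tuft-like and 5.55, 5.58 and 1.05 CPM in non-tuft-like mTEC. Chrm1, a Gq-coupled receptor best known from the brain (ENSMUSG00000032773, chromosome 19, 8663789 to 8683587), had 3.80, 10.1 and 0 CPM against 3.88, 2.66 and 1.78 CPM. For both, the fractions overlapped and all 6 libraries were under the olfactory receptor mark. The log2 fold changes were -0.56 ± 1.11 for Chrm3 and 0.74 ± 1.6 for Chrm1 (estimate ± SE, edgeR FDR = 1 for each), that of Chrm1 changed sign to -0.56 without tuft-like replicate 2, and that of Chrm3 ran from -1.04 to -0.28 when single libraries were left out, the former without non-tuft-like replicate 3, and was -2.57 after background subtraction.

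Chrna7, the subunit of the homomeric alpha7 nicotinic receptor (ENSMUSG00000030525, chromosome 7, 63098692 to 63212569), had 4.55, 0.234 and 0 CPM in tuft-like and 2.30, 2.21 and 8.42 CPM in non-tuft-like mTEC. The fractions overlapped, and no library was above the mark. Its log2 fold change was -1.44 with a standard error of 1.76 (edgeR FDR = 1). It ran from -5.16 without tuft-like replicate 1 to -0.50 without non-tuft-like replicate 3, and was -3.83 with voom.

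Chrnb2, the beta subunit of the main neuronal nicotinic receptor (ENSMUSG00000027950, chromosome 3, 89746195 to 89764632), was the most abundant receptor gene of the set. It had 15.8, 14.5 and 4.45 CPM in tuft-like and 27.3, 22.3 and 15.8 CPM in non-tuft-like mTEC, where 2 libraries were above the olfactory receptor mark. The highest tuft-like value met the lowest non-tuft-like one. The log2 fold change was -0.91 with a standard error of 0.57 (95% interval -2.17 to 0.35, edgeR FDR = 0.919). Of its 8380 exon bases, 1365 overlap Adar on the other strand, and since the strand setting of the counting was not given in the sources used here, reads of the 2 genes may be mixed or set aside as ambiguous there.

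**Figure D3:**
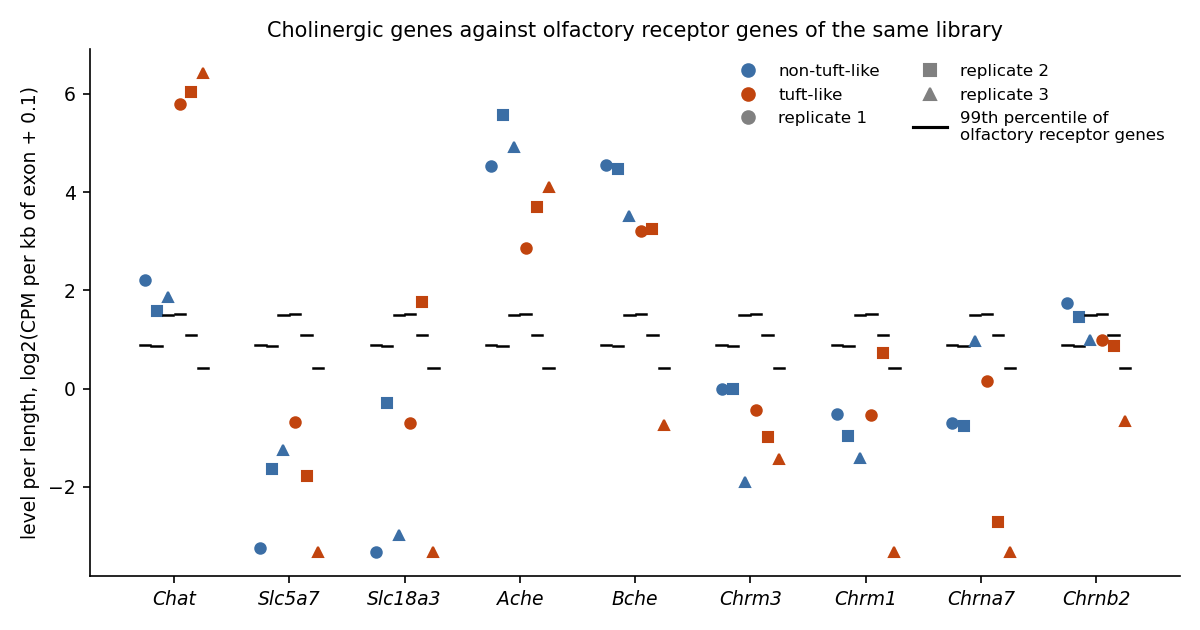
Level of each cholinergic gene as log2(CPM per kb of exon + 0.1), one point per library, with a black dash at the 99th percentile of 1134 olfactory receptor genes in the same library. Chat and Ache are above the mark in all 6 libraries and Bche in 5, whereas Slc5a7, Chrm3, Chrm1 and Chrna7 are below it in every library.

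The wider cholinergic lists held 70 genes without the members, of which 66 were tested. They gave 1 call, higher in tuft-like mTEC, beside 2.11% called over all tested genes. A further 65 were not called, 10 had an unadjusted p under 0.05 (8.97% over all tested genes), and the median log2 fold change was -0.21. The called gene was Chdh, the mitochondrial choline dehydrogenase that oxidises choline toward betaine. Its level was 198.8, 206.6 and 278.0 CPM in tuft-like mTEC against 49.3, 23.4 and 13.8 CPM in the other fraction. The libraries did not overlap, as for 16.0% of all tested genes. The log2 fold change was 2.98 with a standard error of 0.45 (edgeR FDR = 0.0069), and Chdh was called in all 15 alternative settings. Chdh lies 2367676 bp from Chat on chromosome 14, and 589 of its 6217 exon bases overlap Cacna1d. The tuft marker gene Il17rb spans 29996135 to 30008896 on the minus strand, beside the Chdh start at 30009023 on the plus strand. The Chdh promoter printed above thus runs into Il17rb. Il17rb was called higher in tuft-like mTEC (log2 fold change 4.11, edgeR FDR = 0.000334), and a link between the 2 genes was not tested.

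**Figure D4:**
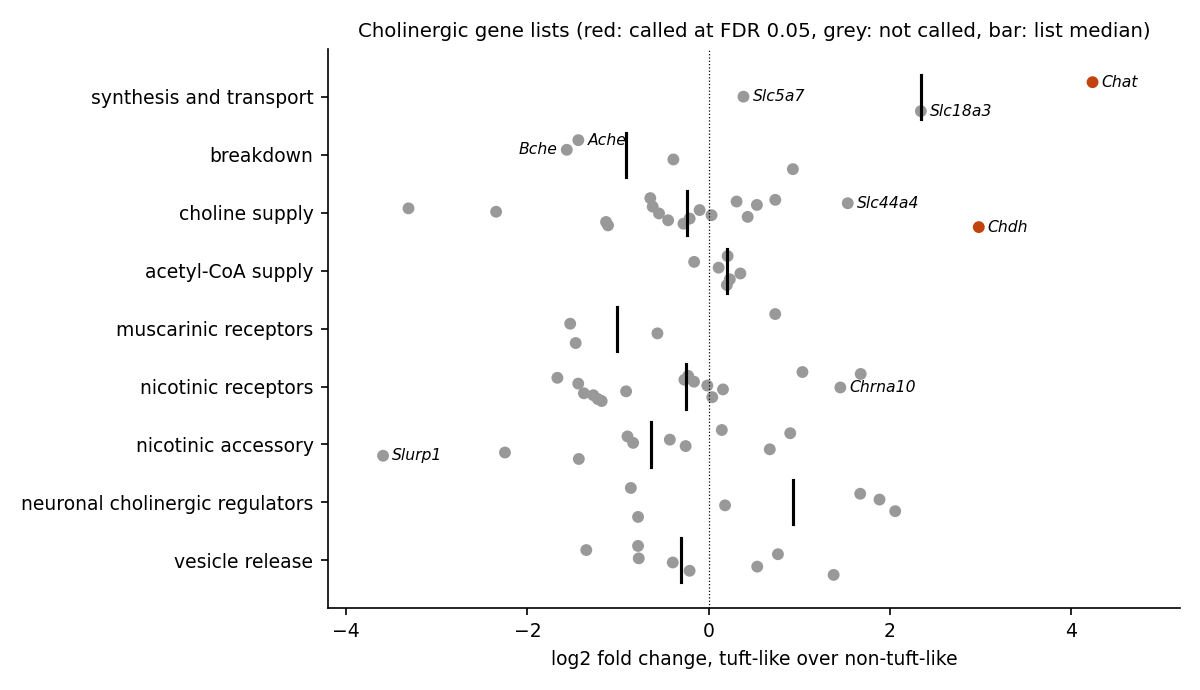
Log2 fold change of tuft-like over non-tuft-like mTEC on the x axis for each tested gene of the 9 cholinergic lists, with one point per gene, called genes in red and a bar at each list's median. Chat and Chdh are the 2 called genes, while the other genes lie on both sides of 0.

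Among the genes that supply choline and acetyl-CoA, Chdh was the only call. Of 18 choline genes, 7 had a positive log2 fold change, against 16568 of 32496 tested genes, and the median was -0.24. The most abundant, the choline transporter-like gene Slc44a2, had a value of 0.74 (edgeR FDR = 0.368). None of 6 acetyl-CoA genes was called, 5 had a positive value with a median of 0.21, and Acly, which makes acetyl-CoA from citrate in the cytosol, stood at 0.21 (edgeR FDR = 1). Slc44a4, a relative of Slc44a2, was singled out after its values were seen: it was at 60.4, 89.3 and 98.3 CPM in tuft-like and 35.7, 32.0 and 17.8 CPM in non-tuft-like mTEC. Its log2 fold change of 1.54 did not pass the threshold (edgeR FDR = 0.056). It did so in 9 of 15 alternatives, but in only 1 of the 6 that left out 1 library, where the edgeR FDR reached 0.207.

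None of the 4 tested muscarinic and 16 nicotinic receptor genes was called, with median log2 fold changes of -1.02 and -0.25, and Chrm5 was too low to test. No muscarinic gene was above the olfactory receptor mark in all libraries of either fraction, and Chrm1 had the highest mean over all 6 libraries, with Chrm2, Chrm3 and Chrm4 above it in non-tuft-like mTEC. Among nicotinic genes, Chrna9, Chrna10 and Chrnb1 were above it in all 6 libraries, and Chrnb4 in the 3 non-tuft-like ones. Chrna10, which pairs with Chrna9 in hair cells, had the highest mean over all 6 libraries, though Chrnb2 and Chrnb4 had higher means in non-tuft-like mTEC. It was at 29.9 to 54.7 CPM in tuft-like and 11.2 to 21.9 CPM in non-tuft-like mTEC (log2 fold change 1.45, SE 0.41, edgeR FDR = 0.129), and 1025 of its 2628 exon bases overlap Art1.

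The lists of accessory proteins, neuronal regulators and release machinery gave no call in the edgeR quasi-likelihood test with TMM scaling. Ric3, a chaperone of nicotinic receptors, had a log2 fold change of 0.15 among 10 accessory genes with a median of -0.63. Slurp1, a secreted modulator of nicotinic receptors in skin, was singled out after its values were seen: it had 1.28, 2.78 and 15.9 CPM in tuft-like and 64.4, 60.3 and 116.7 CPM in non-tuft-like mTEC (log2 fold change -3.59, edgeR FDR = 0.0551). It was called in 9 of 15 alternatives. Of the 6 that left out 1 library it was called in 2, without non-tuft-like replicate 1 and without tuft-like replicate 3. Of 9 regulators of neuronal cholinergic fate 6 could be tested, with Isl1 at -0.86 (edgeR FDR = 0.464). Of 8 release genes 3 had a positive log2 fold change and the median was -0.30, with the calcium sensor gene Syt1 at -0.77 (edgeR FDR = 0.476). Rab3a, a vesicle GTPase gene of the same list that was also singled out after its values were seen, had 59.8, 82.0 and 107.3 CPM in tuft-like mTEC against 45.3, 26.0 and 24.4 CPM. Its log2 fold change was 1.38 (edgeR FDR = 0.0921). It was called in 6 of 15 alternatives, but in 0 of the 6 that left out 1 library.

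The genes whose pattern over the 6 libraries was most like that of Chat were ranked by the root mean square difference of centred log2(CPM + 1) among 11592 genes whose mean reached 10 CPM. They were A630073D07Rik at 0.128, the bitter taste receptor genes Tas2r120 at 0.193 and Tas2r105 at 0.233, the prostaglandin synthase gene Ptgs1 at 0.211 and the guidance ligand gene Slit2 at 0.242. Tas2r genes are a family of similar sequence, so reads may be shared among them. Ptgs1 was also on the list of tuft markers, and none of the 5 nearest belonged to the cholinergic lists. The measure depends on the size of the difference. In this Chdh, the only other called gene of the cholinergic lists, fell short of Chat (log2 fold change 2.98 against 4.24). The absence therefore adds little to the fold changes above.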

How the data were processed

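Bulk RNAseq of 6 sorted mTEC samples, 3 in each fraction, was analysed from 1 table of raw counts per Ensembl gene that the authors deposited. Per the labels, libraries were made with the SMARTer ultra-low-input kit. The submitters' processing notes name Trimmomatic 0.36, STAR 2.7.3a, HTSeq and mm10, and the study's methods give the counting mode as intersection-nonempty. The strand setting and the annotation release were not given in the sources used here. SMARTer libraries amplify from little RNA and carry no molecular identifiers, and the floors for a count of 0 cover counting error only. The intervals of log2 fold changes come from the edgeR fit and include the spread between libraries. The 92 spike-in rows, all at 0, and the 5 HTSeq summary rows were kept out of library sizes and tests. Rows assigned to no gene held 19.7 to 61.6% of all counts. Identifiers were matched to GENCODE M21 (99.7% of gene rows, 147 unmatched).

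Counts were tested with edgeR 4.0.16 (R 4.3.3) by the quasi-likelihood F-test, after filterByExpr (minimum count 10, total 15) and TMM scaling, with no covariate and Benjamini-Hochberg adjustment over 32496 genes at an FDR of 0.05. The common biological coefficient of variation was 1.10. CPM were TMM-scaled. Exact permutation tests used the difference of mean log2(CPM + 1), or of the mean log2 ratio for Chat to Ache. No 2 libraries had equal counts in more than 0.720% of genes. The script was tested on simulated data. Alternatives were RLE factors, library size only, DESeq2 1.42.0, limma 3.58.1 with voom, edgeR's likelihood ratio test, no filter, at least 1 CPM in 3 libraries, a replicate block, subtraction of the olfactory receptor level times exon length, and leaving out each library.

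Named genes were all 9 members, the called and the most abundant genes of each cholinergic list, 5 check genes and the 5 genes nearest to Chat. Slc44a4, Slurp1, Rab3a, Cd79a, Cd79b, Actn3, Chga, Chrnb4, Il17rb, Tek and Aire were named after their values were seen. The members and lists were chosen with earlier results of these data known. Promoters are from RefSeq (GRCm38.p6).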

Additional observations from a re-analysis of the deposited data

How the results depend on the processing

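The count of called genes over the whole table, 687, was 1045 with library size only, 1904 with DESeq2, 1236 with the likelihood ratio test, 1127 with no filter and 1055 after background subtraction, and 376 to 922 when single libraries were left out (376 without replicate 2 of the tuft-like fraction, 379 without that of the other). Its split moved from 378 higher and 309 lower to 310 and 612 without tuft-like replicate 3. Members called numbered 2, Chat and Ache, under library size only, DESeq2, the likelihood ratio test, no filter and background subtraction, and 1, Chat, under the rest. Other cholinergic genes called, 1 in the main analysis, numbered 2 with RLE factors, 4 with library size only, voom, the likelihood ratio test, no filter or background subtraction, 6 with DESeq2, 3 with the CPM filter, and 1 to 2 when libraries were left out. With the replicate number as a block they numbered 2, with 737 genes called in all. Same-numbered libraries deviated with correlations of 0.0883, -0.00169 and -0.0375 over 11593 genes, so the numbers were not taken as pairs. Under the block the log2 fold changes of Slc5a7 and Chrm1 turned to -0.24 and -0.73, and under voom to -0.59 and -1.91. When single libraries were left out, Slc5a7 ran from -0.93 to 1.04, turning negative without replicate 1 of either fraction (-0.17 for the non-tuft-like one), Chrm1 from -0.56 to 1.28, negative without tuft-like replicate 2, Acly from -0.023 to 0.47, negative without non-tuft-like replicate 3, and Ric3 from -0.12 to 0.40, negative without tuft-like replicate 3. The cause of these changes was not tested. Pou2f3 fell short of the threshold without non-tuft-like replicate 2 (edgeR FDR = 0.0653), which left 15 of 16 tuft markers called. Slc5a7 and Slc18a3 were too low to test after background subtraction. At 20097617 to 48369825 counts and with 1.10 as the coefficient of variation, genes at a few CPM had standard errors above 1 on the log2 scale, as for Slc5a7, Slc18a3, Chrm1, Chrm3 and Chrna7.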
